A study of Mus musculus with 4 samples.

Results

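The 10 genes described here are factors that hold T cells in a resting, naive or memory state, chosen by name from the 50600 genes in the deposited tables, and all 10 were found there. They are the protein-coding genes Foxo1, Bach2, Lef1, Satb1, Tcf7, Klf2, Id3, Il7r and Dapl1, together with Gm20402, a noncoding antisense gene inside the first exon of Foxo1. Counts on the strand of each gene were compared with counts of any gene whose exons overlap it on the other strand. Bach2os, Gm43352 and Gm6934 were the genes found opposite Bach2, Lef1 and Satb1.

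The series holds 4 RNA libraries of mouse T-helper 2 (Th2) cells, all of a single group. The cells were primary cells of strain C57BL/6NJ with no treatment, genotype change or second cell type in the labels, which name a protocol for differentiating CD4 T cells. The labels describe total RNA, whereas the library protocol document is named for poly(A)-selected RNA, and the headers of the files name a time of 72 h that the labels leave unexplained. The labels number the libraries as biological replicates, each with its own biosample and all with the same donor. The p-values therefore speak of the spread between these samples alone, and that spread may be technical. Replicates 1, 3 and 4 held 2388255, 1929880 and 1713199 counts and entered every test. Replicate 2 held 5016 counts, of which 1 fell in the 10 genes.

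Resting T cells keep growth and effector genes low. Foxo1, a forkhead factor kept out of the nucleus by PI3K and Akt signalling, drives Il7r, Klf2 and lymph node homing genes in naive T cells. TCF-1, the product of Tcf7, and Lef1 are DNA-binding partners of beta-catenin, and Bach2 represses effector genes, in mice also those of the Th2 programme. Activation through the T cell receptor is known to lower many of these genes.

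The strand on which a fragment was counted bears on every value below. Reads were assigned with strand setting 1, in which read 1 must lie on the strand of the gene, per the file headers, and the strand orientation of the library kit was stated in none of the sources used here. The gene mt-Nd6, the only one on the minus strand among the 13 mitochondrial protein genes, held 83.4%, 82.5% and 77.5% of the counts of those genes in replicates 1, 3 and 4. Genes with no exon of another gene opposite them held 9.26%, 5.78% and 8.67% of all counts in the same libraries. A count is therefore given here as the deposited tables assign it. Whether the RNA behind it came from the gene named or from its other strand was not tested.

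Markers of the labelled cell type were present. All 8 T cell markers and all 6 Th2 markers lay above 1 TPM (counts per kb, scaled to a total of 1000000 per library) in the quasi-likelihood test of edgeR, where 62.9% of the 10670 genes tested did. Cd247, a chain of the T cell receptor complex, averaged 97.4 ± 8.81 TPM (SD, n = 3) and has exons of another gene opposite it. The 6 T cell markers and 3 Th2 markers with none opposite all passed as well. Among them Il13, a Th2 cytokine, was at 96.4, 18.8 and 81.9 TPM in replicates 1, 3 and 4. Il4, another, went the other way in replicate 3, at 31.7, 47.6 and 40.6 TPM in the same libraries. The summed level of the 8 T cell markers was 225, 130 and 229 TPM in replicates 1, 3 and 4. Of that sum Cd247 alone gave 106, 88.3 and 97.8 TPM. The 6 Th2 markers summed to 163, 77.3 and 154 TPM. The 6 activation markers, led by Irf4 and Il2ra, summed to 307, 163 and 285 TPM. All 3 sums were lowest in replicate 3, although Irf4 was lowest in replicate 1, at 91.7 TPM. Replicate 3 also had the smallest share of counts in genes with no exons opposite, 5.78%. The part of that share in these sums was not tested. The 4 natural killer cell markers were at 0 in every library, and the 4 CD8 T cell markers had too few counts to test. Cd79a, a B cell receptor chain, passed at 5.80 ± 3.90 TPM, with Ms4a1, Cd79b and Pax5 at 0, and the B cell sum lay between 2.05 and 9.84 TPM. Csf1r, a macrophage growth factor receptor with exons of another gene opposite it, passed at 140 ± 9.75 TPM, with 4 of the 6 myeloid markers at 0, and the myeloid sum lay between 134 and 152 TPM. The part of these 2 genes in the levels below was not tested.

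Exons of Foxo1, Bach2, Lef1 and Satb1 overlap exons on the other strand, and the place of the overlap differs between them (GRCm38, the mm10 build of the files, with GENCODE vM21 annotation). Foxo1 lies at chr3:52268336-52353221 on the plus strand and Gm20402 at chr3:52268435-52269435 on the minus strand, with 98.1% of its 687 exonic bases inside the first exon of Foxo1. That overlap took in 367 untranslated bases, at chr3:52268435-52268801, and 307 coding bases that begin with the start codon. Gm43352, at chr3:131109026-131112090 on the minus strand, covered 1001 untranslated and 207 coding bases of the first exon of Lef1, which lies at chr3:131110471-131224356 on the plus strand. Bach2os, at chr4:32559680-32571708 on the minus strand, overlapped 537 bases of Bach2, all coding and far downstream of its annotated start. Bach2 lies at chr4:32238804-32586108 on the plus strand. Gm6934, at chr17:51832819-51834723 on the plus strand, shared only 128 untranslated bases with the 5′ exon of Satb1, at chr17:51736187-51833290 on the minus strand. Gm6934 is annotated as TEC, a class for transcripts that await experimental proof.

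**Figure D1:**
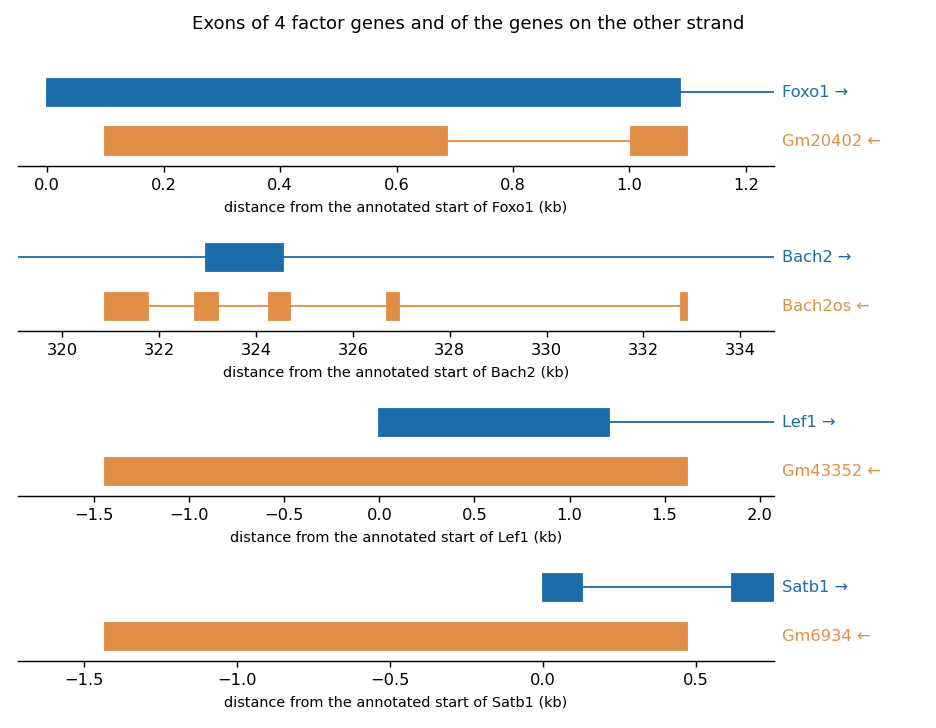
Exons of Foxo1, Bach2, Lef1 and Satb1 (blue boxes) and of the genes opposite them (orange boxes) against distance from the annotated start of the factor gene in kb, with introns as lines and arrows for the direction of transcription. Gm20402 falls almost whole, 98.1% of its exonic bases, inside the first exon of Foxo1, while Bach2os covers 537 bases of Bach2 and Gm6934 only 128 bases of Satb1.

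The ratios given further on compare whole genes, each per kb of all its exons. The overlap makes up 7.78% of the exonic bases of Foxo1, 13.75% of those of Lef1 and 5.40% of those of Bach2. The stretches below lie in that overlap, where both genes of a pair own the same bases, read in opposite directions. Each is the first 90 coding bases of the overlap, 5′ to 3′ on the strand of the gene named, from GENCODE vM21 transcripts. Capitals mark the start codon of Foxo1 or Lef1 and the bases opposite it, and the Bach2 stretch holds no start codon. The first pair lies at chr3:52268802-52268891, the second at chr3:131111472-131111561 and the third at chr4:32561778-32561867, with the factor gene on the plus strand and the other gene on the minus strand.
Foxo1: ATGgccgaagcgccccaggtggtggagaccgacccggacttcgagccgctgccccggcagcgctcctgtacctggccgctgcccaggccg
Gm20402: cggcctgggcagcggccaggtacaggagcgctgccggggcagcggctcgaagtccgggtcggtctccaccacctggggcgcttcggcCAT
Lef1: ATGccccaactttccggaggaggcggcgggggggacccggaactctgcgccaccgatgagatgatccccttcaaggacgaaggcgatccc
Gm43352: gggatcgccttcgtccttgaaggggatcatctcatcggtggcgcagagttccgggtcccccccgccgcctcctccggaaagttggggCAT
Bach2: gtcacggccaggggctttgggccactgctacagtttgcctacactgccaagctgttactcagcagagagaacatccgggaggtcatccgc
Bach2os: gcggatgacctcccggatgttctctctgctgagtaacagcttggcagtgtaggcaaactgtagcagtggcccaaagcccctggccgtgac

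The G and C content of the coding overlap of Foxo1 was 71.6% and 58.8% in its 2 segments, against 58.5% in that of Lef1 and 57.8% and 58.0% in the 2 segments of Bach2. Gm20402 has an intron of 314 bases, at chr3:52269024-52269337, that also lies within the first exon of Foxo1. It begins with GT and ends with AG on the strand of Gm20402, the bases found at the ends of most introns, and reads CT and AC on the strand of Foxo1.

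The overlap at Lef1 and Satb1 also reached their promoters. In RefSeq (GRCm38.p6), whose promoter table matched 9 of the 10 genes with 17 promoters of 300 bases, the promoter of Lef1 at chr3:131110047-131110346 lay whole inside the exon of Gm43352, and that of Satb1 at chr17:51833241-51833540 whole inside the exon of Gm6934. The 250 bases before each start are shown because counts of Gm43352 and Gm6934 can come from them, at chr3:131110047-131110296 on the plus strand and chr17:51833291-51833540 on the minus strand. Capitals mark a GC box, GGGCGG on either strand, which the Satb1 stretch did not hold.
Lef1 promoter: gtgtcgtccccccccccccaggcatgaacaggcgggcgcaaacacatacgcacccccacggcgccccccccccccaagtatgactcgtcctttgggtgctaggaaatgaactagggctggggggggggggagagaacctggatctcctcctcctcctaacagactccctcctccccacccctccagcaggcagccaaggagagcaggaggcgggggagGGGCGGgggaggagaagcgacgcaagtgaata
Satb1 promoter: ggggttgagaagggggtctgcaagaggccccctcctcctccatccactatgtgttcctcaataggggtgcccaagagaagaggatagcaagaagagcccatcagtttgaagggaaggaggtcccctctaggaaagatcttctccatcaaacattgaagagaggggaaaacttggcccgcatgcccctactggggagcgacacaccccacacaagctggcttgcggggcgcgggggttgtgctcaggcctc

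Searched on both strands, the GC box stood in 10 of the 17 promoters, in 7 of the 9 genes, and in 35.7% of all 32851 promoters of that length. Some promoters of Lef1 and of Satb1 overlap each other, so the 17 are not separate. Shares of all promoters count promoters and not genes. The forkhead motif TGTTTAC stood in promoters of Dapl1 and Tcf7 and in 3.65% of all. The TCF and LEF motif CTTTGAT stood in none of the 17 and in 3.73% of all, and TATAAA stood in promoters of Dapl1, Lef1 and Tcf7 and in 13.6% of all. None of these strings contains another, and a match describes only the letters in this window.

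Foxo1 had far fewer counts than the gene opposite it in every library. Foxo1 had 22, 15 and 20 counts in replicates 1, 3 and 4, and Gm20402 had 1130, 905 and 610. Per kb of exon that was 2.54, 1.73 and 2.31 counts for Foxo1 and 1645, 1317 and 888 counts for Gm20402. No library of Foxo1 came near any library of Gm20402. Pooled over the 3 libraries, Foxo1 held 0.171% of the density of Gm20402 (exact 95% interval 0.129 to 0.222, counting error only), so that Gm20402 was 585-fold denser on the strands as assigned. Were the strands exchanged, the counts of Gm20402 would lie on the strand of Foxo1, within the exons of Gm20402. Those of Foxo1 would lie on the strand of Gm20402, over all exons of Foxo1. The 2 densities of a pair thus cover different stretches. Of the exonic bases of Gm43352, Bach2os and Gm6934, only 39.4%, 24.6% and 6.72% lie in exons of Lef1, Bach2 and Satb1. Exchanged counts of these partners therefore need not be exonic counts of the factor gene. The log2 ratio of Foxo1 to Gm20402 was −9.31, −9.53 and −8.55, with a mean of −9.13 ± 0.51 (SD, n = 3). In edgeR's quasi-likelihood test with the library as a block the log2 ratio was −9.15 ± 0.35 (SE), with a Benjamini-Hochberg adjusted p of 1.02e-06.

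Bach2, a repressor that restrains effector differentiation, came next in the size of the gap. Bach2 had 37, 19 and 29 counts and Bach2os had 2046, 1703 and 1434. Per kb, Bach2 stood at 3.72, 1.91 and 2.92 counts and Bach2os at 937, 780 and 657, and the ranges lay far apart. Pooled, Bach2 held 0.360% of the density of Bach2os (exact 95% interval 0.287 to 0.446), a 278-fold difference. The edgeR log2 ratio was −8.13 ± 0.32 (SE), adjusted p = 1.02e-06.

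Lef1, the beta-catenin partner, had more counts than Foxo1 and Bach2 and again fewer per kb than its partner. Lef1 had 139, 81 and 88 counts and Gm43352 had 1852, 1464 and 1348. Per kb, Lef1 stood at 15.8, 9.22 and 10.01 counts and Gm43352 at 604, 478 and 440. The 2 ranges did not overlap. Pooled, Lef1 held 2.30% of the density of Gm43352 (exact 95% interval 2.05 to 2.59), a 43.4-fold difference, and the edgeR log2 ratio was −5.46 ± 0.25 (SE), adjusted p = 1.07e-06.

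Satb1, a chromatin organiser needed in T cell development, had more counts than its partner and fewer per kb. Satb1 had 328, 123 and 196 counts over 19027 exonic bases, and Gm6934 had 71, 93 and 48 counts over 1905. Per kb, Satb1 stood at 17.2, 6.46 and 10.3 counts and Gm6934 at 37.3, 48.8 and 25.2. The ranges did not overlap, but replicate 3 was the lowest library for Satb1 and the highest for Gm6934. Pooled, Satb1 held 30.6% of the density of Gm6934 (exact 95% interval 26.1 to 35.9), a 3.27-fold difference. The edgeR log2 ratio was −1.77 ± 0.40 (SE), adjusted p = 0.00375, and it was −1.19 without replicate 3.

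**Figure D2:**
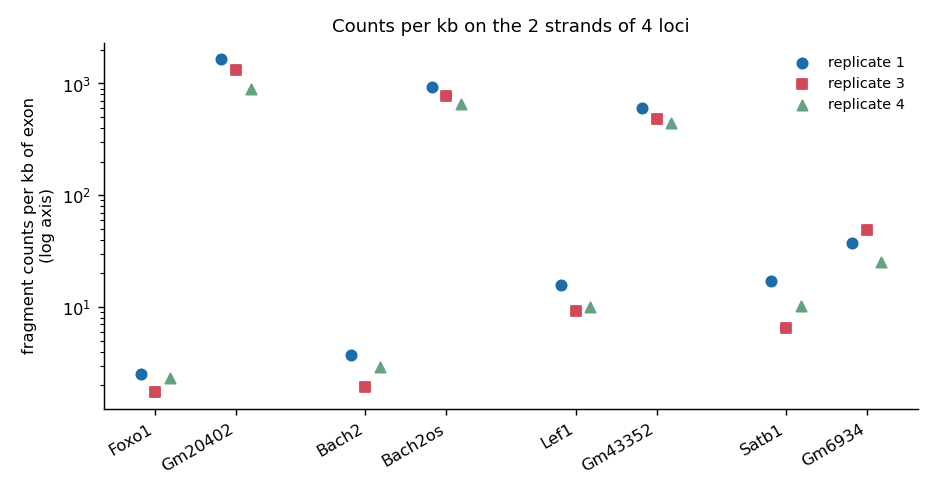
Fragment counts per kb of exon (log axis) for Foxo1, Bach2, Lef1 and Satb1, each left of the gene on its other strand, with 1 point per library for replicates 1, 3 and 4. The factor gene lies below its partner in all 3 libraries at each locus, from 2.54 against 1645 counts per kb for Foxo1 in replicate 1 to 17.2 against 37.3 for Satb1.

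All 4 factor genes with exons opposite were lower than their partners, in 3 of 3 libraries each. Of the 3355 pairs of opposite-strand genes tested over the whole table, 88.0% were called in either direction, 63.7% with the first, usually longer, gene lower and 24.3% with it higher. Among the 1527 pairs of a longer protein-coding gene and a shorter noncoding one, the kind these 4 are, the coding gene was lower in 83.2%. The shared direction of the 4 was thus that of most such pairs. Flipping the signs of the library ratios in an exact permutation test, two-sided, gave p = 0.25 for each, the smallest that 3 libraries allow.

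The size of the gap placed the 4 genes apart from each other within all pairs. A lower ratio than that of Foxo1 was found in 7.63% of the 3355 pairs, than that of Bach2 in 14.9%, than that of Lef1 in 36.2% and than that of Satb1 in 59.8%. The median log2 ratio of all pairs was −3.48, so Foxo1, Bach2 and Lef1 lay below it and Satb1 above. These shares hold for the strands as assigned. Set only against the 302 pairs in which a gene lies at least 90% inside exons of another, Foxo1 was less extreme, since 31.1% of those had a lower ratio and their median was −7.34. The nested pairs closest in ratio to Foxo1 and Gm20402 were Zfp703 with Gm45371, at 58 and 4636 counts, Dleu2 with Gm27845, at 13 and 77, and Pitpnb with Gm43118, at 50 and 6906.

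**Figure D3:**
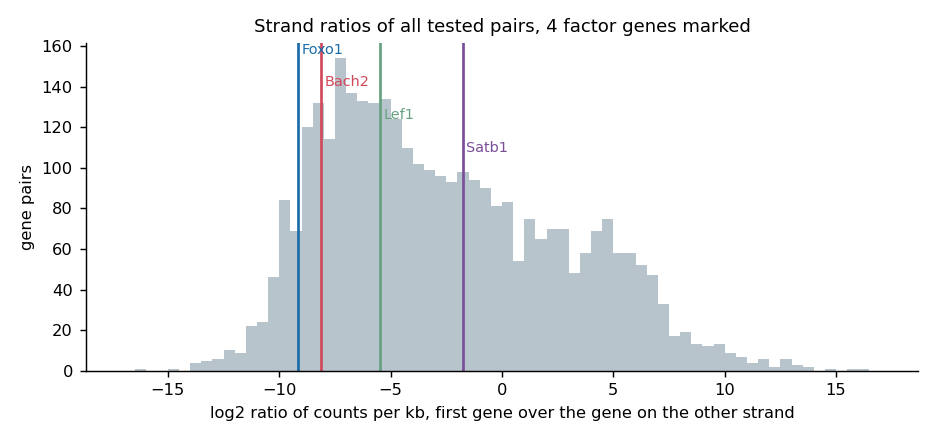
Number of gene pairs (vertical axis) by log2 ratio of counts per kb, first gene over the gene on the other strand (horizontal axis), for the 3355 pairs tested, with lines at Foxo1, Bach2, Lef1 and Satb1. Foxo1 at −9.15 and Bach2 at −8.13 stand toward the low end, Lef1 at −5.46 in the broad main mass and Satb1 at −1.77 above the median of −3.48.

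Levels on the annotated strand were compared as TPM, which is per kb of exon. Setting genes side by side in this way assumes that the counts come from the gene named and from all its annotated exons. Gm20402 stood at 985, 961 and 749 TPM in replicates 1, 3 and 4, a mean of 898 ± 130 (SD, n = 3), and ranked 99 among the 2566 antisense genes by mean TPM. Bach2os, at 562 ± 7.66 TPM, ranked 148 and Gm43352, at 360 ± 11.2 TPM, ranked 209. All 3 were above every protein-coding gene of the set, and Gm6934 had 26.4 ± 8.01 TPM.

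The genes with no exon opposite them were led by Dapl1 and Tcf7. Dapl1, which encodes a small protein related to death-associated protein, had 20, 12 and 11 counts, or 17.6, 12.9 and 13.7 TPM. Tcf7 had 47, 18 and 37 counts, or 10.7, 5.00 and 11.9 TPM, with replicate 3 the lowest. Il7r, the alpha chain of the receptor for the survival cytokine IL-7, had 28, 34 and 22 counts, or 5.23, 7.74 and 5.78 TPM, with replicate 3 the highest. Their means were 14.7 ± 2.54 TPM for Dapl1, 9.20 ± 3.68 for Tcf7 and 6.25 ± 1.32 for Il7r. They stood above 97.9%, 96.4% and 94.7% of the protein-coding genes that, like them, have no exons opposite.

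Id3 and Klf2 were near the limit of detection on the strands as assigned. Id3, which blocks E proteins by binding them, had 3, 6 and 7 counts, or 1.00, 2.45 and 3.30 TPM, and its mean of 2.25 ± 1.16 TPM was above that of 86.3% of its class. Klf2, a zinc finger factor that drives S1pr1 in resting T cells, had 0, 1 and 0 counts. The count in replicate 3 came to 0.395 TPM. On the strand as assigned, the 0 counts in replicates 1 and 4 allow up to 0.972 and 1.37 TPM (3 counts). Klf2 was the only gene of the 10 with too few counts for the test against 1 TPM.

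The genes with exons opposite them ran from Lef1 to Foxo1. Lef1 stood at 9.47, 6.73 and 8.45 TPM, a mean of 8.21 ± 1.39. Satb1 stood at 10.3, 4.72 and 8.69 TPM, a mean of 7.91 ± 2.88, with replicate 3 clearly the lowest. Bach2 stood at 2.23, 1.395 and 2.46 TPM and Foxo1 at 1.52, 1.26 and 1.95 TPM, for means of 2.03 ± 0.560 and 1.58 ± 0.345. Against protein-coding genes that also have exons opposite, Lef1 and Satb1 stood above 72.2% and 71.7% of them, and Bach2 and Foxo1 above 53.1% and 49.6%. These classes take in genes with few or no counts, so that Klf2, with 1 count, still stood above 55.1% of its class. Over the genes tested alone the median was 5.34 TPM with exons opposite and 1.89 TPM without.

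In order of mean TPM the 10 genes ran Gm20402, Dapl1, Tcf7, Lef1, Satb1, Il7r, Id3, Bach2, Foxo1 and Klf2. Gm20402 lay above Dapl1 in every library, Dapl1 above Tcf7, Il7r above Id3 and Foxo1 above Klf2, with no overlap of their ranges. Bach2 also lay above Foxo1 in 3 of 3 libraries, by a log2 ratio of 0.33 ± 0.20 (SD), although their ranges overlapped. The log2 ratio of Dapl1 to Tcf7 was 0.75 ± 0.58 (SD, n = 3) and that of Il7r to Id3 was 1.56 ± 0.74. Tcf7, Lef1, Satb1 and Il7r overlapped each with the next, and so did Id3 and Bach2, and the order of these neighbours changed between libraries. None of these neighbours could reach a p under 0.25 with 3 libraries in the exact permutation test.

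**Figure D4:**
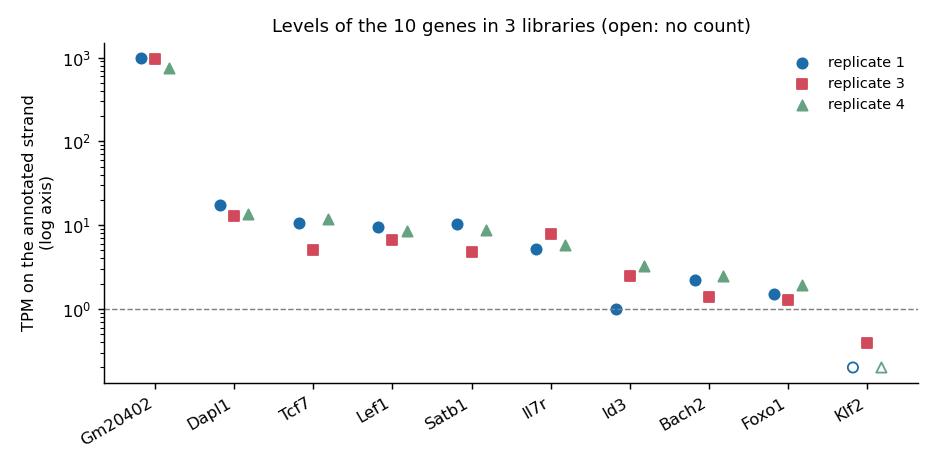
TPM on the annotated strand (log axis) of the 10 genes in order of mean, with 1 point per library for replicates 1, 3 and 4, open symbols for libraries with no count (drawn at the foot of the axis) and a dashed line at 1 TPM. Gm20402 stands near 898 TPM, Dapl1 to Il7r between 4.72 and 17.6 TPM, Id3, Bach2 and Foxo1 between 1.00 and 3.30 TPM, and Klf2 has 1 count in replicate 3 alone.

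Tested against 1 TPM, 7 of the 9 genes tested were above and 2 were not decided, where 62.9% of all genes tested were above and 2.97% below. The fitted level was above 1 TPM for all 9. Entry needed 10 or more counts, which already lies above 1 TPM for genes as short as Dapl1 (0.679 kb), Gm20402 (0.687 kb) and Id3 (1.791 kb). These genes could not be tested and found below, and Klf2, with 1 count, was left out by the same filter. With no filter, 2834 genes were called below 1 TPM, where 317 were with it. The lack of calls below 1 TPM among the 9 is thus set in part by the filter. Of the protein-coding genes tested, 46.0% of those without exons opposite were above and 4.02% below, and 70.8% of those with them were above and 3.12% below. Among those without, Dapl1, Tcf7 and Il7r passed and Id3 did not (log2 level 1.13 ± 0.52 SE, edgeR adjusted p = 0.0824). Among those with exons opposite, Lef1, Satb1 and Bach2 passed and Foxo1 did not (log2 level 0.65 ± 0.32 SE, edgeR adjusted p = 0.101). The call for Bach2 (log2 level 1.02 ± 0.28 SE, edgeR adjusted p = 0.00906) was lost without replicate 1 (adjusted p = 0.0859) or replicate 4 (adjusted p = 0.135), and Foxo1 passed without replicate 3 (adjusted p = 0.0235). TPM here is a share of counts of which most lie in genes with exons opposite. Counted over genes without such exons alone, Dapl1, Tcf7, Il7r and Id3 all lay above 1 TPM, as did every call in that class, and their log2 levels moved up by a median of 3.95.

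The libraries varied more for some of these genes than counting would give. Satb1 had 137, 63.7 and 114 CPM (counts per 1000000 counts of the library) in replicates 1, 3 and 4, a coefficient of variation of 35.8% where Poisson counting alone gives 7.37%. Tcf7 had 19.7, 9.33 and 21.6 CPM, a variation of 39.1% against 18.6% from counting. Foxo1 varied by 20.7% against 23.2% from counting, Il7r by 22.3% against 19.2% and Id3 by 51.0% against 46.3%, and Dapl1 varied by less than its 27.3% from counting.

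Gm43352 and Bach2os varied the least, and no more than about their counting error, while Gm6934 and Gm20402 varied more than counting would give. Gm43352 had 775, 759 and 787 CPM, a variation of 1.84% against 2.56% from counting, and Bach2os had 857, 882 and 837 CPM, 2.65% against 2.43%. Gm20402, at 473, 469 and 356 CPM, varied by 15.3% against 3.48%, with replicate 4 the lowest, and Gm6934 varied by 31.7% against 12.3%, with replicate 3 the highest. Over the same libraries Lef1 varied by 16.1% against 10.1% from counting and Bach2 by 26.6% against 19.5%, in both cases with replicate 3 the lowest.

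**Figure D5:**
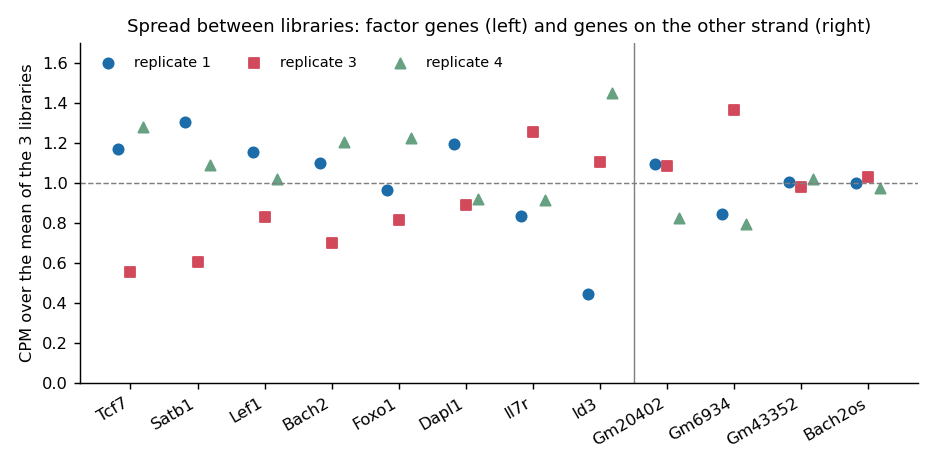
CPM of each gene divided by its mean over replicates 1, 3 and 4 (vertical axis), with factor genes left of the grey line, the genes on the other strand right of it, and 1 point per library. Among the factor genes, replicate 3 is the lowest library for Tcf7, Satb1, Lef1, Bach2, Foxo1 and, narrowly, Dapl1, and the highest for Il7r. Of the genes opposite, Gm6934 is highest in replicate 3, while Gm43352 and Bach2os lie close to 1 in all 3 libraries.

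Replicate 3 differed from replicates 1 and 4 over much of the table, and Satb1 and Gm6934 were called in opposite directions there. Such a test compares libraries, and the lone library has no spread of its own and is assumed to vary like the others. In edgeR's quasi-likelihood test of replicate 3 against replicates 1 and 4, 15.2% of 6922 genes were called. The shares for replicate 1 (0.0289%) and replicate 4 (0.0433%) are not comparable with it, since replicate 3 then lies in the other arm and widens its spread. Satb1 was called lower in replicate 3 (log2 −0.85 ± 0.23 SE, adjusted p = 0.00572) and Gm6934 higher (log2 0.87 ± 0.31 SE, adjusted p = 0.0393), while the other genes of the set and partners that were tested were not called. Tcf7 had a log2 difference of −1.001 ± 0.48 (SE), adjusted p = 0.14, and Il7r one of 0.66 ± 0.45, adjusted p = 0.328. Among genes without exons opposite, 22.0% were called lower in replicate 3 and 0.817% higher, and among genes with them 4.82% and 4.35%. Replicate 3 also held the lowest summed level of the T cell, Th2 and activation markers, and the part of that difference in the values of Satb1 and Tcf7 was not tested. Both calls were lost at differences of about the same size with DESeq2 (log2 −0.74, adjusted p = 0.346 for Satb1 and log2 0.98, adjusted p = 0.415 for Gm6934) and with replicate 2 included in edgeR (log2 −0.84, adjusted p = 0.0611 and log2 0.89, adjusted p = 0.088). When the libraries were scaled to genes without exons opposite, the values of the 11 genes tested moved up in replicate 3 by a median of 0.50 on the log2 scale. Satb1 was then no longer called in edgeR (log2 −0.35, adjusted p = 0.241), and Gm6934, Gm20402, Gm43352, Bach2os and Il7r were called higher. Foxo1 (−0.27 ± 0.54 SE), Lef1 (−0.25 ± 0.30) and Dapl1 (−0.13 ± 0.60) lay within their SE of 0 before and turned positive through that common shift, with no call under either scaling.

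Genes that share the neighbourhood of the factor loci were read as well. Gm26551, whose span overlaps that of Tcf7 on the same strand, had 6, 2 and 4 counts in replicates 1, 3 and 4. A630014C17Rik, an antisense gene that spans the start of Tcf7 with no overlap of exons, had 27, 36 and 24 counts and was picked after its values were seen. Tcf7 averaged 9.20 ± 3.68 TPM and A630014C17Rik 7.002 ± 1.705 TPM. The nearest exon on the other strand was 569 bp from an exon of Tcf7, 13773 bp from Klf2, 40126 bp from Il7r, 59248 bp from Dapl1 and 68525 bp from Id3. The 9 genes annotated wholly inside Foxo1, Lef1, Satb1 or Bach2 on the same strand, with 22.5 kb of exon, had 1 count in all 4 libraries together.

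Other genes of the same pathways were read from lists, by their calls against 1 TPM on the annotated strand. Above it lay 62.9% of all genes tested. Of protein-coding genes tested, 46.0% of those without exons opposite and 70.8% of those with them lay above. Among the list genes named below, outside the 10, Stat5a, Jak1, Cish, Bcl2, Ctnnb1, Tcf7l1, Tle1, Klf3 and Il6ra have exons opposite. Of 10 genes of IL-7 receptor signalling, 9 were above and 1 was not decided. They included Stat5a (7.53 ± 1.699 TPM) and Stat5b (5.42 ± 1.96 TPM), which carry the signal to the nucleus, Il2rg (4.11 ± 2.56 TPM), the shared gamma chain, and Mcl1 (7.90 ± 3.00 TPM), which protects from cell death. Jak1 (3.803 ± 2.55 TPM) and Jak3 (2.85 ± 1.53 TPM), the kinases of the receptor, and the feedback inhibitors Socs1 (5.48 ± 5.03 TPM) and Cish (5.68 ± 1.46 TPM) were above as well. Bcl2, a survival factor of resting T cells, had 1.52 ± 0.377 TPM and was the gene not decided. The median over all 10 was 5.45 TPM, beside 3.52 TPM over the genes tested in the whole table; medians of the lists below likewise take in members with too few counts to test.

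Of the 4 FOXO genes, Foxo4 alone was above, with Foxo1 at 1.58 ± 0.345 TPM and Foxo4 at 33.1 ± 2.18 TPM. Foxo3 had 1.18 ± 0.582 TPM and was not decided, Foxo6 was at 0 counts, and the median of the 4 was 1.38 TPM. Foxo4 has no exons opposite it.

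Of 8 TCF and LEF factors and cofactors, Tcf7, Lef1, Tcf7l1 (2.41 ± 0.981 TPM) and Ctnnb1 (3.21 ± 2.12 TPM), which encodes beta-catenin, were above. Tle1, a corepressor, was below, at 0.401 ± 0.0739 TPM, and Tcf7l2 had no counts. The median of this list was 1.91 TPM.

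Of 7 KLF genes, Klf6 was above, at 6.67 ± 5.07 TPM with replicate 3 at 0.865 TPM against 8.94 and 10.2 TPM in replicates 1 and 4, and Klf3 was below, at 0.423 ± 0.196 TPM. S1pr1, a receptor for lymph node egress that Klf2 is known to drive, had 2, 1 and 5 counts, too few to test. In the list of 6 homing and egress genes to which it belongs, S1pr4 (13.2 ± 0.498 TPM), Il6ra (8.17 ± 0.857 TPM) and Ccr7 (6.41 ± 2.36 TPM) were above. The list medians were 0.423 TPM for the KLF genes and 4.13 TPM for homing and egress.

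Of 7 E proteins and Id inhibitors, Id2 (8.84 ± 4.68 TPM) and the E protein Tcf3 (3.34 ± 1.96 TPM) were above and the E protein Tcf12 was below, at 0.302 ± 0.173 TPM, with a list median of 0.344 TPM. Of 7 BACH factors and partners, Maff (47.6 ± 6.35 TPM), Mafg (2.10 ± 0.619 TPM) and Bach2 were above, and the median was 1.87 TPM. Prdm1, which encodes the effector regulator Blimp1 and is a target that Bach2 represses, had no counts, and neither had Bach1. Of 8 other quiescence genes, Slfn2 (11.4 ± 3.86 TPM) was above and Tsc1 (0.417 ± 0.148 TPM), a brake on mTOR, was below, while Btg1, Btg2, Cdkn1b and Foxp1 were not decided and the median was 1.19 TPM.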

How the data were processed

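Gene counts of 4 Th2 libraries were used as deposited. Per the file headers, the authors counted fragments with featureCounts 1.4.6-p4 on GENCODE vM13 exons (mm10), with both mates mapped and strand setting 1; values are raw counts. Symbols came from GENCODE vM21 by gene identifier (224 of 50600 had none). Exon overlaps of at least 1 base on opposite strands were found with bedtools 2.31.1, which gave 4597 pairs, of which 3355 had 10 or more counts. CPM and TPM were computed here.

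Tests were fitted over the whole table in R 4.3.3 by edgeR 4.0.16 (quasi-likelihood), with Benjamini-Hochberg adjustment at 0.05: pairs with a length and library offset and the library as a block; levels against 1 TPM for genes with 10 or more counts in all; and 1 library against the other 2 after TMM scaling, for genes averaging at least 10 counts, the lone library being assumed to vary like the rest. These were also run on simulated counts with 1 fixed spread for all genes and no library shifted over much of the table. That run therefore does not speak for the replicate 3 calls. limma 3.58.1 and DESeq2 1.42.0 were alternatives. Log2 ratios per library used a pseudocount of 0.5. Intervals are exact binomial ones, and, as the headers and labels name no molecular identifiers, they and the floor of 3 counts cover counting error only. No 2 libraries were alike within sampling noise. Main tests used replicates 1, 3 and 4, since replicate 2 is too shallow, with a 3-count floor of 598 CPM against 1.26 to 1.75 CPM elsewhere.

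The 10 genes and all gene lists were chosen with earlier results of these data known. Named genes are the 10, the genes opposite them, list genes that passed the 1 TPM test or are named for their role, the leading markers, and the 3 nested pairs closest to Foxo1 in ratio. Results for a few list genes are not reported here.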

Additional observations from a re-analysis of the deposited data

Results flagged for a closer look

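Klf2 had 1 count in replicate 3, or 0.518 CPM, and 0 in the other 3 libraries, so the gap of that library took the whole range (1 of 1). A value of this kind is met by any gene with a single count.

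Gm43352, opposite Lef1, had its lowest value in replicate 2, at 399 CPM, with a gap to the nearest library of 0.927 of the range, past Dixon's critical value for 4 samples. That value rests on 2 counts, where the other 3 libraries would give 3.88. Chance flags about 1 in 20 groups.

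Bach2os had 5 counts in replicate 2, the library outside the tests, or 997 CPM, where the other 3 libraries would give 4.31 counts. Bach2 had 0 counts there, where they would give 0.0707.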

How the results depend on the processing

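Pairs were fitted with the library as a block. Without the replicate block, all 4 pairs kept direction and call, at log2 ratios of −9.15 for Foxo1, −8.11 for Bach2, −5.45 for Lef1 and −1.74 for Satb1. They also did so with limma, all 4 libraries, no filter, an overlap of 50 bases and each replicate left out, with Satb1 between −2.12 and −1.19.

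The count of genes below 1 TPM, 317, was 552 with all 4 libraries, 556 with limma on log2(TPM + 1), 2834 with no filter, 0 with TPM over genes without exons opposite, and 9, 276 and 35 without replicate 1, 3 or 4. Bach2 missed the 1 TPM threshold with limma (adjusted p 0.0755 with 0.1 added and 0.0998 with 1), and with all 4 libraries Foxo1 (0.0478) and Id3 (0.0296) passed.

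Genes apart in replicate 3, 1051, were 56 with DESeq2 and 2229 when scaled to genes without exons opposite, a setting chosen after seeing the data. Under it Foxo1 (0.22), Lef1 (0.25) and Dapl1 (0.37) turned positive in log2. Without a filter Gm6934 lost its call (adjusted p = 0.0693). Genes apart in replicate 1, 2, were 1 with no filter, and those in replicate 4, 3, were 0 with DESeq2 (37 at an unadjusted edgeR p under 0.05). The causes were not tested. Leaving out a replicate here leaves no spread to test with and was not run. Below about 10 counts, as for Klf2, depth limits what can be said, and the part of the strand assignment in such low counts was not tested.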
